A study of Mus musculus with 2 samples.

Results

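Tropomyosins, tropomodulins and leiomodins are the proteins that cover the actin filament and set the state of its slow-growing, pointed end. These genes were examined in fetal mouse ear at E18.5, on 1 Affymetrix array of wild-type BALB/c tissue and 1 array of BALB/c tissue null for both Myf5 and Myod1. The members are 10 genes: the tropomyosins Tpm1, Tpm2, Tpm3 and Tpm4, the tropomodulins Tmod1, Tmod3 and Tmod4, and the leiomodins Lmod1, Lmod2 and Lmod3. A probe set was taken where the platform annotation paired it with exactly 1 gene and that gene was a member, which gave 14 of the 35557 probe sets on each array and 10 of 19938 named genes. Both samples were labelled as fetal ear and shared age and strain. Dissection, the alleles used and the number of fetuses behind each RNA are not stated in the labels. With 1 array per genotype there is no replicate check on any difference and no test was possible; precision is limited by the number of arrays.

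Tropomyosins are coiled-coil dimers that lie end to end along the actin filament, where in striated muscle they carry the troponin complex and gate the access of myosin. Tropomyosin genes can make several proteins through alternative promoters or splicing. Long forms are made in muscle, and short or long forms in the cytoskeleton of other cells. Tropomodulins cap the pointed end and hold filament length steady, and the related leiomodins start new filaments and let them lengthen at that end. Myf5 and Myod1 encode the factors that direct cells into the skeletal muscle lineage. The study's title names the role of skeletal muscle in ear development, and the comparison is of ears with and without both genes.

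The unit throughout is the deposited log2 signal, and a difference is the double knockout minus the wild type. A probe set's signal depends on its probes, so a level is compared between the arrays and never between genes. The median of each array, 5.65 in wild-type and 5.70 in double-knockout ear, was used as a floor below which a signal was not read. Where 1 side lay below it the value was raised to it and the fold is a bound, written "at least". A difference was called at 2-fold. Among the 12458 genes that passed the floor on 1 or both arrays, 213 were called lower in the double knockout, 1.71%, and 60 were called higher, 0.482%. By probe set the shares were 1.79% and 0.438% of 13701.

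Tpm1, Tpm2, Tmod1, Tmod4, Lmod2 and Lmod3 were lower in the double knockout, while Tpm4 and Tmod3 lay close to their wild-type values and the probe sets of Tpm3 were split. Taking for each gene its probe set of highest mean signal, 6 of the 10 genes were lower by 2-fold or more, 4 were not called and 0 were higher, where the share of all genes called lower was 1.71%. The 4 were Tpm3, Tpm4, Tmod3 and Lmod1, the last barely above the floor. By probe set, 7 of 14 were lower and 0 higher, since 1 of the 4 probe sets of Tpm3 was also lower. The median difference over the 10 genes was -1.41, and over all 12458 genes it was -0.005. Whole-tissue RNA cannot tell apart fewer muscle fibres from less of these transcripts in each fibre. The genes were chosen with results of these arrays known, so the counts describe the members and support no claim about them as a group.

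**Figure D1:**
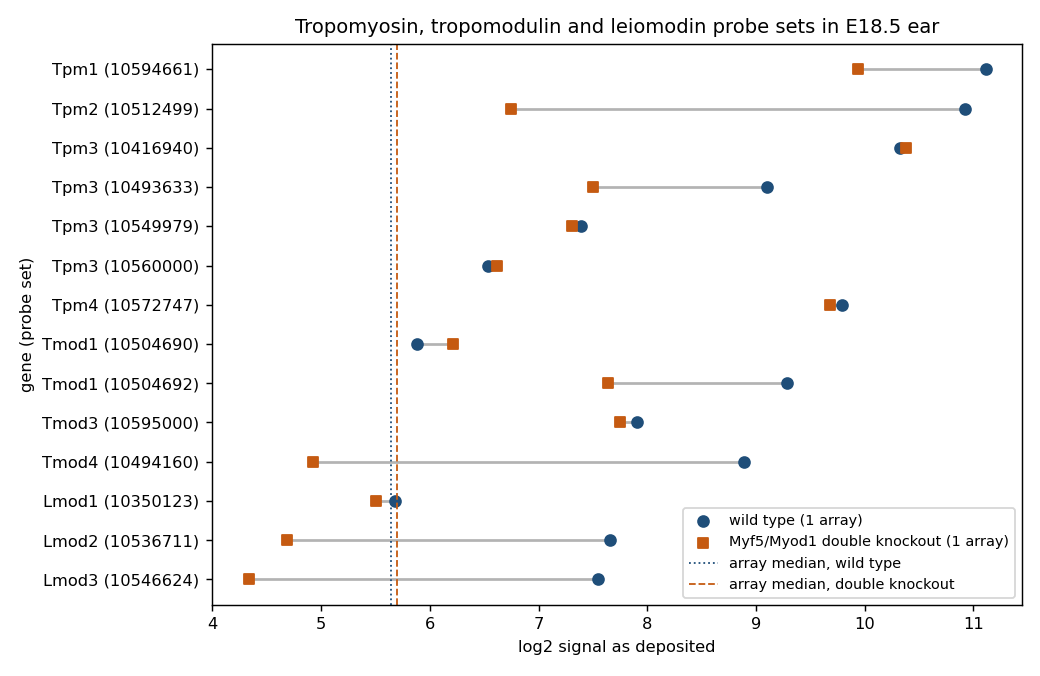
Deposited log2 signal (horizontal axis) of each of the 14 member probe sets in wild-type ear (circles) and double-knockout ear (squares), 1 array each, with each array's median as a vertical line. Tpm2, Tmod4, Lmod2 and Lmod3 show the widest gaps, and the last 3 of these lie below the array median in the double knockout.

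Among the tropomyosins, Tpm2 had the largest difference. Tpm2 encodes beta-tropomyosin, which skeletal and smooth muscle make. Its single probe set (10512499) read 10.92 in wild-type and 6.75 in double-knockout ear, a difference of -4.17 or 18-fold lower. Both signals were above the floor. At least 25 genes were further below 0, a minimum because genes at the floor were counted at their bounds. The residual Tpm2 signal lay 1.05 above the array median.

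Tpm1 encodes alpha-tropomyosin, which fast skeletal muscle, heart, smooth muscle and many other cells make in different splice forms. Its probe set (10594661) read 11.11 in wild-type and 9.94 in double-knockout ear, a difference of -1.17 or 2.25-fold lower. The signal in the double knockout was still 4.24 above the array median. The annotation lists 20 transcript accessions for this 1 probe set, so its value covers many splice forms at once and does not tell the muscle forms from the others.

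Tpm3 makes the long tropomyosin of slow muscle fibres and a set of short cytoplasmic forms found in most cells, and its 4 probe sets did not go the same way. Probe set 10493633 read 9.10 in wild-type and 7.50 in double-knockout ear, 3.02-fold lower, a difference of -1.60. Probe set 10416940, the brightest of the gene, read 10.33 and 10.38, a difference of 0.05. Probe sets 10549979 and 10560000 read 7.39 and 7.31, and 6.53 and 6.62, with differences of -0.08 and 0.08. The annotation gives what each one covers. The 3 transcript accessions listed for 10493633 share 0 entries with those of 10549979 and 0 with those of 10560000, and all 3 are also among the 13 listed for 10416940. The lower probe set is therefore annotated to a subset of Tpm3 transcripts that 2 of the other 3 are not annotated to.

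The position of the Tpm3 probe sets on the array also differed. Identifiers on this array run along the genome: for 96.8% of 21695 probe sets with 1 gene, the commonest chromosome among the 6 nearest identifiers of other genes was the gene's own. Tpm3 lies on chromosome 3 in the RefSeq table (GRCm38.p6), and the 6 neighbours of 10493633 were all on chromosome 3. The 6 neighbours of 10416940 were all on chromosome 14, and those of 10549979 and of 10560000 were all on chromosome 7. Of the 4, the probe set that was lower is the one that sits among the neighbours of the Tpm3 gene itself. The RefSeq table lists a pseudogene named Tpm3-rs7 on chromosome 14. Whether the other 3 probe sets read Tpm3 transcripts, copies of the gene, or both was not tested, and their near-equal signals are uncertain as measures of Tpm3. With Tpm3 taken by 10493633, an alternative chosen after the values were seen, 7 of the 10 genes were lower.

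Tpm4 encodes a short tropomyosin of the cytoskeleton. Its probe set (10572747) read 9.79 in wild-type and 9.68 in double-knockout ear, a difference of -0.11. A further probe set (10448202) was left out because the annotation pairs it with Tpm4 and with the pseudogene Gm7809. It read 11.09 and 10.96, and its 6 neighbours lay on chromosome 17, while Tpm4 lies on chromosome 8. Both values for Tpm4 were within 0.14 of 0, less than the standard deviation of 0.168 between probe sets of the same gene.

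Tropomodulins are known by where they are made: Tmod4 in skeletal muscle, Tmod1 in red blood cells, heart and skeletal muscle, and Tmod3 in most cells. Tmod4 (probe set 10494160) read 8.89 in wild-type and 4.93 in double-knockout ear, under the floor, which puts it at least 9.14-fold lower. On the deposited values without the floor the difference was -3.97. Tmod3 (probe set 10595000) read 7.91 and 7.75, a difference of -0.16.

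Tmod1 has 2 probe sets that went opposite ways. Probe set 10504692 read 9.28 in wild-type and 7.64 in double-knockout ear, a difference of -1.64 or 3.12-fold lower. Probe set 10504690 read 5.88 and 6.22, a difference of 0.34, and was close to the floor in both, by 0.23 in wild-type and 0.52 in double-knockout ear. The brighter probe set is annotated to 5 transcript accessions and the dimmer one to 1, with 0 shared. Both sit among neighbours on chromosome 4, the chromosome of Tmod1. The standard deviation over all genes that passed the floor on each array was 0.344, close to the 0.34 of the dimmer probe set. The lower value of Tmod1 rests on 1 of its 2 probe sets.

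Red blood cells cap their short actin filaments with Tmod1, so erythroid genes were set beside it. Of 12 erythroid genes, 10 had a probe set with 1 gene and 5 lay above the floor, all within 2-fold and 4 of the 5 below 0, with a median difference of -0.06. Of all genes 1.71% were called lower and 0.482% higher, so 5 genes without a call say little. The summed linear signal of the 10 with a probe set, 5 of them below the floor on both arrays, was 1594 in wild-type and 1578 in double-knockout ear. The largest part of both sums was Alas2. Alas2, the first enzyme of haem synthesis in red cells, differed by 0.15, Slc4a1, the band 3 anion exchanger, by -0.28 and Fech, the last enzyme of haem synthesis, by -0.02. Sptb, the beta-spectrin of red cells and muscle, was furthest from 0, at -0.72 or 1.64-fold lower, and Alas2 was the 1 of the 5 above 0. Epb42, Rhag, Klf1, Epor and Tspo2 were below the floor on both arrays.

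Leiomodins also divide by tissue: Lmod1 in smooth muscle, Lmod2 in heart and skeletal muscle, and Lmod3 in skeletal muscle. Lmod3 (probe set 10546624) read 7.55 in wild-type and 4.33 in double-knockout ear, at least 3.61-fold lower. Lmod2 (probe set 10536711) read 7.66 in wild-type ear and 4.68 without Myf5 and Myod1, at least 3.88-fold lower. Without the floor the differences were -3.22 for Lmod3 and -2.97 for Lmod2. Both were under the array median in the double knockout, by 1.37 and 1.02, so how far below the wild type they lay is not measured. Raising the floor to the 75th percentile shrank the bounds to -0.20 and -0.31, short of 2-fold.

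Lmod1 (probe set 10350123) read 5.68 in the wild type, 0.04 above the floor, and 5.51 in the double knockout, below it. No fold is given for it, since a difference was not readable at this signal.

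**Figure D2:**
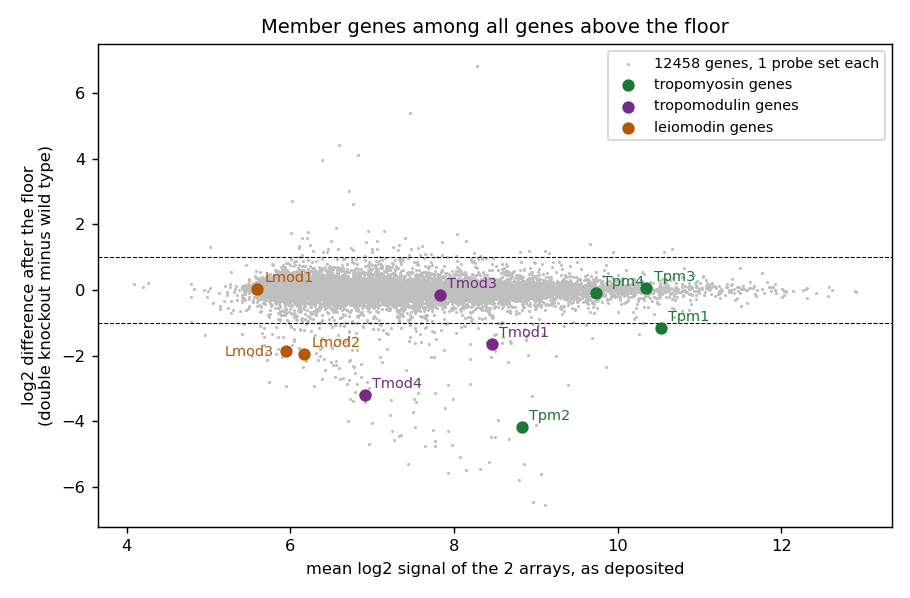
Log2 difference after the floor (vertical axis) against mean deposited log2 signal (horizontal axis) for 12458 genes in grey and the 10 member genes in colour, with dashed lines at 2-fold. Tpm2 and Tmod4 are the lowest members at -4.17 and -3.19, and Tpm3, shown by its brightest probe set, Tpm4, Tmod3 and Lmod1 lie in the body of the cloud.

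For scale, the 11626 genes that passed the floor on both arrays had differences from -0.996 at the 1st percentile to 0.75 at the 99th. Tpm1, Tpm2, the lower probe set of Tpm3 and the brighter one of Tmod1 were below that 1st percentile. The spread between probe sets of 1 gene, 0.168 over 619 genes, covers probe noise and not the variation between animals.

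The other genes of the thin filament were far lower too. Of 20 genes of the striated thin filament, its length control and its Z-disc anchors, 19 were above the floor, and 17 of these were lower by 2-fold or more, none was higher and 2, Klhl40 and Fhod3, were not called. Klhl40 was at the floor in the double knockout, so a larger difference is possible for it, and Fhod3 differed by -0.41. With the 12 values that are bounds taken at their bound, the list's median was -3.36, itself a bound. On the values without the floor it was -3.86, over all 20 genes, Tnni3 entering though below the floor on both arrays. Actc1 and Acta1, the sarcomeric actins on which muscle tropomyosins lie, differed by -6.54 and -6.46. Tnnt3, the fast troponin T that joins tropomyosin to the troponin complex, differed by -5.79. Cfl2, the muscle cofilin that trims filaments, was the called gene nearest to 0, at -1.09. The members' median of -1.41 lay between this list and that of all genes.

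Cytoplasmic actin genes did not share this direction. All 23 genes of the cytoplasmic actin filament list that had a probe set with 1 gene were within 2-fold, with a median of 0.004 and a range from -0.34 to 0.20. With 1.71% of all genes called lower and 0.482% higher, the lack of calls says little by itself. Actb, the beta-actin gene, differed by 0.08, Cfl1, the general cofilin, by 0.09 and Pfn1, the profilin that delivers actin monomers, by -0.02. Tmod2, the neuronal tropomodulin, is in this list and read 8.44 in wild-type and 8.64 in double-knockout ear, a difference of 0.20. Capzb, which encodes a subunit of the protein that caps the opposite end of the filament, differed by -0.18. Tpm4 and Tmod3, at -0.11 and -0.16, lay within this list's range.

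Smooth muscle also makes Tpm1, Tpm2 and Lmod1, and smooth muscle genes mostly read somewhat below their wild-type values, with 1 call. Of 12 genes 11 were above the floor, 1, Acta2, was called lower and 10 were not, with 10 of 11 below 0 and a median of -0.39. The call of Acta2 was lost with the arrays set to equal medians and with a pseudocount, and Synpo2, at the floor in the double knockout, has only a bound. The summed linear signal of the 12 was 4084 in wild-type and 2681 in double-knockout ear. Acta2, the smooth muscle actin that immature skeletal muscle also makes, was the largest part of both sums. It read 10.82 and 9.81, a difference of -1.01. Myl9 differed by -0.58 and Smtn by -0.08. Myocd, the coactivator of smooth muscle genes, was below the floor on both arrays. The part of smooth muscle in the values of Tpm1 and Tpm2 was not tested.

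Heart muscle makes Tpm1, Tmod1 and Lmod2, and several of its defining genes were under the floor. Myh6, Myl7, Nppa, Nppb and Tnni3 were below the floor on both arrays. Of 12 cardiac genes 7 were above it, of which 3 were called lower and 4 were not, with a median of -0.16. The 3 called lower were Myl4, Myl2 and Myl3, which fetal or slow skeletal muscle also makes, at -4.55, -1.42 and -1.42, the last 2 as bounds. The summed linear signal over the 12, signals below the floor included, was 2651 in wild-type and 518.7 in double-knockout ear. Most of the wild-type sum was Myl4, which read 10.95 in wild-type and 6.40 in double-knockout ear. Of the cardiac transcription factors, Nkx2-5 read 5.70 and 6.25, a difference of 0.55, and Hand2 6.26 and 6.10, a difference of -0.16, while Tbx20 read 5.85 in the wild type and was under the floor in the double knockout. Skeletal muscle genes were lower throughout: 15 of the 16 were above the floor and all 15 were at least 2-fold lower, with a median of -4.29, a bound like most of its values, and Myh4 was below the floor on both arrays. The summed linear signal of the 16, as deposited, was 20970 in wild-type and 634.5 in double-knockout ear. Only 4 of the 16 were above the floor on both arrays, so the second sum includes signals not read and gives no fold. Ckm, the muscle creatine kinase, differed by -5.30, Myl1 by -5.60 and Myh8, the perinatal myosin heavy chain, by at least 47.2-fold.

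**Figure D3:**
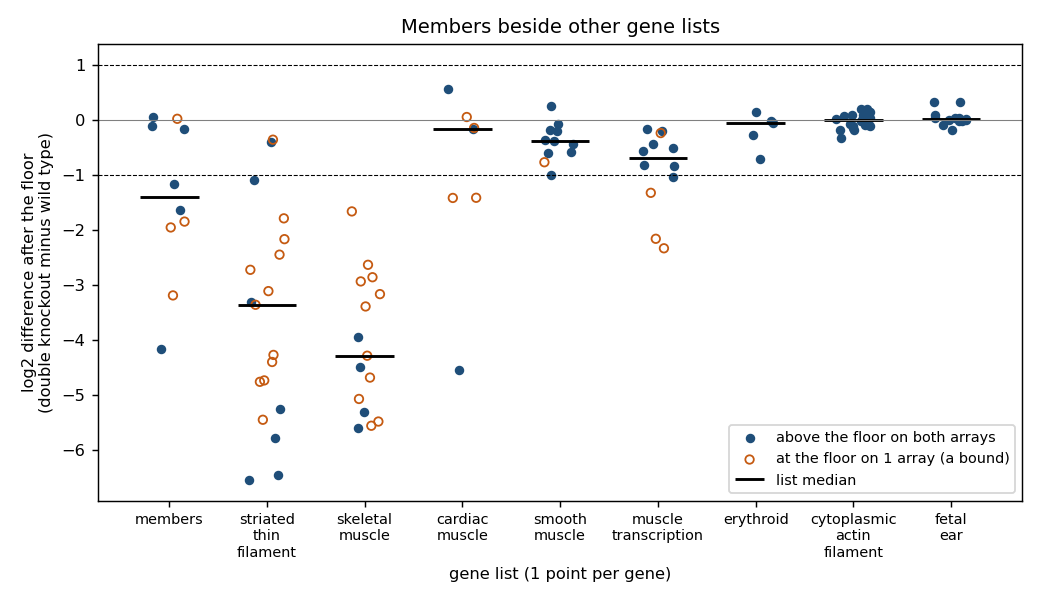
Log2 difference after the floor (vertical axis) for the genes of each list (horizontal axis, 1 point per gene, spread sideways for legibility), filled where both arrays were above the floor and open where 1 was at it, with a bar at the list median. The members span the range from the cytoplasmic actin list, with a median of 0.004, to the striated thin filament list, with a median of -3.36 that rests on bounds.

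Muscle transcription factors were measured as well, and whether they act on the members was not tested. Of 12, all below 0, 4 were called lower and 8 were not, Myf5 among them with only a bound, with a median of -0.70. Myf6, a late muscle regulator, was at least 5.05-fold lower, and Mef2c differed by -1.04, Mef2a by -0.16 and Mef2d by -0.44. Srf, the factor of actin and tropomodulin-family genes, read 8.58 and 7.76, a difference of -0.83, and its coactivators Mrtfa and Mrtfb differed by -0.20 and -0.51. Srf, Mrtfa and Mrtfb were named after their values were seen. Of the targeted genes, Myod1 read 6.95 in wild-type and 6.38 in double-knockout ear, and Myf5 read 5.94 and 5.25. No source used here says whether their probe sets lie in the deleted parts, so they do not check the labels.

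Likeness was measured as the gap between 2 genes' log2 differences, over 2 arrays, among the 7 genes of the striated thin filament list above the floor on both. For Tpm2, at -4.17, the nearest were Tnnt2, the troponin T of heart and immature muscle, at -3.32 and Tnni2, the fast troponin I, at -5.25. For Tpm1, at -1.17, they were Cfl2 at -1.09 and Fhod3, a formin, at -0.41. For Tmod1, at -1.64, they were the same Cfl2 and Fhod3, with gaps of 0.56 and 1.23. A gap over 1 contrast ranks these genes and shows nothing more.

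The windows before the start sites were read because several members were lower together. RefSeq windows (GRCm38.p6) were listed for 8 of the 10 genes, with 2 starts for Tpm3, which made 9 windows of 250 bases upstream of a start. Tmod3 and Lmod3 were not among them. Printed here are the windows of Tpm2 and Lmod2, which were lower, the outer of the 2 Tpm3 starts, and Tpm4, which lay near 0. Each runs 5′ to 3′ in the direction of transcription, and capitals mark an E-box (CANNTG), the letters bound by Myod1 and its relatives. The printed windows do not show whether an E-box goes with a lower signal. Of those not printed, that of Tmod1, which was lower, has no E-box, and that of Lmod1, which was not called, has 1.
Tpm2, chr4:43523555-43523804, - strand: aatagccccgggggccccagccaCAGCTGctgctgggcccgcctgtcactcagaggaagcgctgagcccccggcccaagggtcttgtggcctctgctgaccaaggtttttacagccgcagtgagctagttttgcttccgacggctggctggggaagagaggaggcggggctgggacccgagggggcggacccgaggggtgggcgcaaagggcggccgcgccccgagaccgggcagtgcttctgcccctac
Tpm3, chr3:90072401-90072650, + strand: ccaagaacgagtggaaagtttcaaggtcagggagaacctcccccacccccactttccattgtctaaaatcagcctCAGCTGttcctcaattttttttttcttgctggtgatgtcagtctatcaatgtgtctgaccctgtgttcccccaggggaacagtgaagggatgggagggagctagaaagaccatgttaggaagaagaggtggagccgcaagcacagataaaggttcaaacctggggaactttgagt
Lmod2, chr6:24597521-24597770, + strand: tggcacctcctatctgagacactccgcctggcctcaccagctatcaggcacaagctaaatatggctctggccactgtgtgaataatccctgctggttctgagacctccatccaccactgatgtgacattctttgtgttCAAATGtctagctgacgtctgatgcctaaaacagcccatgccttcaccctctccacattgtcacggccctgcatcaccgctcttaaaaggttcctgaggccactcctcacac
Tpm4, chr8:72135038-72135287, + strand: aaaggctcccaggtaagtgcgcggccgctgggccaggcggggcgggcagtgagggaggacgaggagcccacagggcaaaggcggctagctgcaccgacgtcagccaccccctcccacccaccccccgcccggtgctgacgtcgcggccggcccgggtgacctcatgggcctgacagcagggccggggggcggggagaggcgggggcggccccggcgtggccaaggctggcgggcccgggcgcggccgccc

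An E-box stood in 7 of the 9 windows, and in 66.2% of the 32851 windows of all genes. It was in the windows of Tpm1, Tpm2, Lmod1, Lmod2, Tmod4 and both starts of Tpm3, and not in those of Tpm4 and Tmod1. In Tpm2 it was at -227 to -222 from the start, in Lmod2 at -112 to -107, and in the outer Tpm3 window at -175 to -170. Tmod4 had 2, at -193 to -188 and -63 to -58. The M-CAT letters CATTCC, bound by Tead factors, stood in 3 of the 9, those of Tpm1, Tmod1 and Lmod1, and in 12.6% of all windows. The CArG box, which Srf binds, and the Mef2 site had 0 matches in the 9 windows, and stood in 1.47% and 2.92% of all. Both strands were searched, and no matches of different motifs overlapped. The E-box was thus in windows of some lower members, of Lmod1 and of most genes alike, and was absent from that of Tmod1, also lower. A match is only these letters, and an absent match says only that they are not in this window.

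Inner ear genes were set beside the members. Of 15 such genes, 13 were above the floor and all 13 were within 2-fold, with a median of 0.02. Of all genes 1.71% were called lower and 0.482% higher, so 13 genes without a call say little about the ear. Otoa and Atoh1, among the 13, had identical values on both arrays, 7.25 and 6.17, from a cause not tested. Oc90, the main protein of otoconia, differed by -0.02, and Otor and Coch, both abundant in the cochlea, by 0.33 and 0.32. Pou4f3 and Slc26a4 were below the floor on both arrays. The arrays also differed in genes of salivary glands: Bpifa2, the parotid secretory protein, read 4.09 in wild-type and 12.47 in double-knockout ear, and Smgc, of the submandibular gland, 3.89 and 11.05. These glands lie beside the ear and are no part of it. Whether the tissue taken differed, and what part that would have in the members' values, was not tested.

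**Figure D4:**
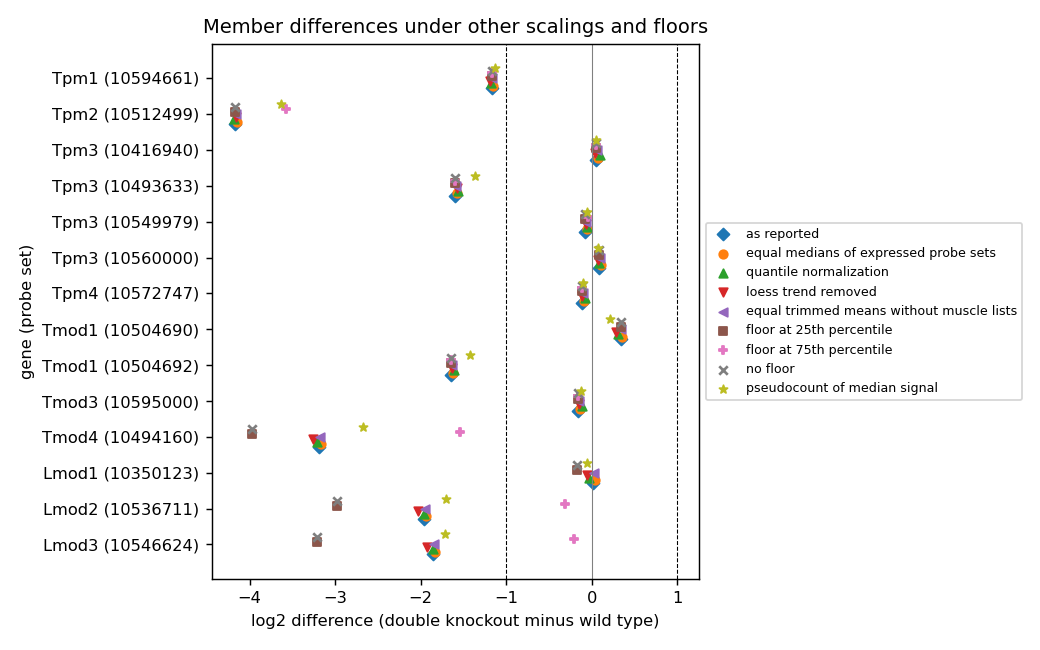
Log2 difference (horizontal axis) of each member probe set as reported and under 8 other scalings or floors (symbols). Tpm1, Tpm2, the lower Tpm3 probe set, the brighter Tmod1 probe set and Tmod4 stay below -1 under all of them, while Lmod2 and Lmod3 pass above -1 with the floor at the 75th percentile.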

How the data were processed

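Total RNA was extracted with Trizol and 6 µg was labelled, per the labels' protocols. The authors deposited a table of log2 values, 1 per probe set and array; the base was read from the range, 0.75 to 13.27. MAS5 is named, without a version, per the submitters' processing notes. MAS5 reads mismatch probes, which this type of whole-transcript array lacks, so how the deposited signals were made is uncertain. No source used here states the background correction, the scaling or the genome build. The deposited values of 1227 probe sets (3.45%) were identical on both arrays, of which 0 are member probe sets, and the cause was not tested. Trimmed means of linear signal (2% left out at each end) were 140.0 and 138.0, so the deposited scale was kept.

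Genes were named by the platform annotation (21789 probe sets with 1 gene, 1621 with several, 12147 with none listed); 0 symbols needed updating through RefSeq. The calculation used Python 3.11.15 and was tested on simulated data. Named genes were all members, Myf5 and Myod1, the 3 brightest and the furthest 2-fold gene of each list, and the nearest thin filament genes; Sptb, Synpo2, Klhl40, Nkx2-5, Hand2, Tbx20, Epb42, Rhag, Klf1, Epor, Tspo2, Tmod2, Capzb, Myocd, the cardiac and inner ear genes below the floor, Myh4, Bpifa2, Smgc, Srf, Mrtfa and Mrtfb were named outside this rule after their values were seen. Otoa and Atoh1 were also named outside that rule after their values were seen. Members and lists were chosen with earlier results of these data known.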

Additional observations from a re-analysis of the deposited data

How the results depend on the processing

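No paired analysis was possible because each group has 1 array. With 11 alternatives fixed at the outset and 1 added later, the count of lower member genes ran from 4, with the floor at the 75th percentile (9 genes entering), to 7, with Tpm3 taken by the probe set of its own neighbourhood, against 6 as reported; 0 were higher under any. It was 5 at 3-fold and 5 with a gene's probe sets summarised by their median, where the split probe sets of Tmod1 took it within 2-fold. Tpm1 ranged from -1.19 to -1.13, Tpm2 from -4.18 to -3.57 and Tmod4 from -3.97 to -1.54. Tpm1 fell short at 3-fold, and Lmod2 and Lmod3 at the 75th-percentile floor. No scaling turned the direction of a called member. The counts over all genes depend on the floor: at the 75th percentile 111 were lower and 21 higher. Signal over background limits Lmod1, Lmod2, Lmod3 and Tmod4, which have a bound or no reading in the double knockout.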
